A study of Mus musculus with 8 samples.

Results

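Among the excitatory neurons of mice given an astrocyte-directed Cre virus, 1188 of 31042 nuclei held at least 1 UMI (1 counted RNA molecule) of the vector feature Cre. These Cre-positive nuclei were chosen by their Cre UMIs, so their Cre level is a description and was not tested. They were set against Cre-negative nuclei, which held 0 UMIs of Cre and of EGFP, of the same library and the same excitatory type (L2/3, L4, L5IT, L5PT, L5NP, L6IT, L6CT or L6b). The 31042 nuclei were part of 102330 in the whole series. Most Cre-positive nuclei, 1080, lay just inside the threshold with 1 Cre UMI, 97 held 2 and 11 held 3 or more.

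Single-nucleus RNA-seq was performed on primary visual cortex (V1) of GR fl/fl mice at postnatal day 21, in which the glucocorticoid receptor gene Nr3c1 is floxed in every cell. GR-KO mice had received AAV2/5 with Cre under the GfaABC1D promoter, a short Gfap promoter used to target astrocytes, and GR-Con mice the same vector with an inactive Cre (ΔCre, the feature delCre); both vectors carried EGFP with a membrane anchor. The mice were reared normally (NR) or in the dark (DR), and each of the 4 groups had 2 mice, 1 male and 1 female, with 1 library per mouse. Nuclei in GR-Con carry the same floxed gene and a virus injection. Nuclei had been sorted as DRAQ5-positive and GFP-negative.

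The glucocorticoid receptor is a ligand-activated transcription factor. On binding corticosterone it moves to the nucleus and raises genes such as Fkbp5, Sgk1, Tsc22d3 and Per1, while the related mineralocorticoid receptor, encoded by Nr3c2, binds the same hormone with higher affinity. Cre recombinase deletes DNA between loxP sites, so a neuron that made active Cre in these mice could lose a part of Nr3c1. Sequencing from the 3′ end of transcripts cannot show the loss of an upstream exon, and the Nr3c1 count is therefore no check of recombination.

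Cre UMIs were present in 4 of 4 GR-KO libraries and in none of 38330 excitatory nuclei of GR-Con, which allows a share of up to 0.00783% (3 counts of that total). The NR GR-KO male had the highest share. It supplied 748 of the 1188 Cre-positive nuclei (63.0%) from 8538 excitatory nuclei, a share of 8.76%. The share was 2.44% in the NR GR-KO female (151 of 6188), 1.41% in the DR GR-KO male (102 of 7257) and 2.06% in the DR GR-KO female (187 of 9059). Median depth of the Cre-positive nuclei ran from 19082 to 37716 UMIs over the 4 libraries. A 16-base cell barcode found in another library was carried by 31 Cre-positive nuclei (2.61%), beside 2452 of all 102330 nuclei (2.40%). Of the barcodes, 1 was Cre-positive in more than 1 library.

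Cre was less frequent among L6CT (corticothalamic) neurons than among L2/3, L4, L5IT, L5PT and L6IT neurons in each of the 4 libraries. Of all GR-KO nuclei of a type, Cre was detected in 5.83% of L4 (486 of 8342), 5.63% of L5IT (87 of 1546), 4.75% of L5PT (63 of 1325) and 4.15% of L2/3 (422 of 10175). It was detected in 2.65% of L6IT (79 of 2982), 1.92% of L6b (10 of 520), 1.28% of L5NP (9 of 703) and 0.587% of L6CT (32 of 5449). The exact 95% binomial intervals ran from 5.33 to 6.35% for L4 and from 0.402 to 0.828% for L6CT. They pool nuclei of 4 mice, cover counting error and not the spread between mice, and are a description.

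The order of the types above L6CT was not the same in every library, and the pooled order rested on the NR GR-KO male. This library supplied 66 of the 87 Cre-positive L5IT nuclei, with a share of 11.9% against 2.35% in the NR GR-KO female, 1.71% in the DR GR-KO male and 2.33% in the DR GR-KO female. In L4 the share was 15.6% in the NR GR-KO male, 3.76% in the NR GR-KO female, 2.18% in the DR GR-KO male and 2.25% in the DR GR-KO female. In L2/3 it was 9.07%, 2.55%, 1.78% and 2.96%, and in L5PT 9.01%, 3.39%, 1.30% and 3.51%, in the same order of libraries. L4 was thus the highest of these 4 types in 3 libraries and the lowest in the DR GR-KO female.

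**Figure D1:**
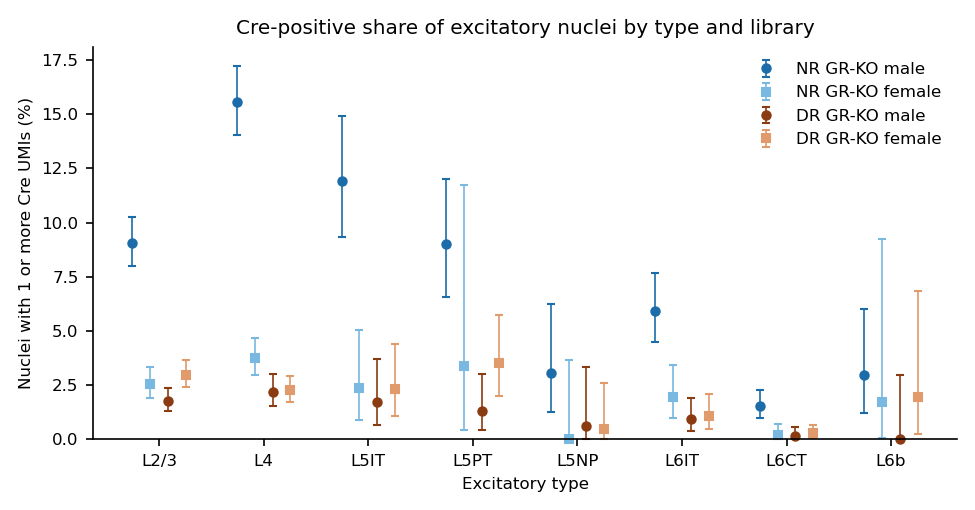
Percent of nuclei with at least 1 Cre UMI (y axis) in each excitatory type (x axis) and GR-KO library, with exact 95% binomial intervals. The NR GR-KO male had the highest point in each type, and the L6CT share was below the L4 share in every library.

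The difference between L4 and L6CT was also seen in counts per 1e6 UMIs (CPM), which do not rise with depth by construction. In L4 the Cre level was 7.22 CPM in the NR GR-KO male, 1.19 in the NR GR-KO female, 1.34 in the DR GR-KO male and 1.41 in the DR GR-KO female. In L6CT it was 0.676, 0.0606, 0.0978 and 0.161 CPM in the same order of libraries. L4 was thus above L6CT in each of the 4 mice. Cre-positive nuclei in L2/3 and L4 together outnumbered those of all other types.

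Detection depended on depth. In the NR GR-KO male, 5.91% of nuclei in the lowest of 4 equal bins of UMI count within each type were Cre-positive and 11.7% in the highest bin, while the Cre level was 3.56 and 3.72 CPM. Between the same bins the share went from 1.30 to 4.20% in the NR GR-KO female, 0.828 to 2.20% in the DR GR-KO male and 1.41 to 3.397% in the DR GR-KO female. The Cre level there went from 0.593 to 0.932 CPM, 0.762 to 0.877 CPM and 1.24 to 1.45 CPM. Both measures were thus higher in the deepest bin than in the shallowest in each library. Oligodendrocytes and their precursors, which the promoter is not used to target, served as the background for free RNA. Cre was detected in 6 of their 4001 GR-KO nuclei (0.150%) at a median depth of 8175 UMIs, against 3.83% of excitatory nuclei at a median of 21731.5 UMIs. With each nucleus thinned to 5000 UMIs, which left 30932 excitatory and 3473 oligodendrocyte-lineage nuclei, the shares were 0.823% and 0.101%.

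Cre-positive neurons carried EGFP less often than Cre-positive astrocytes and more often than Cre-zero neurons. EGFP was detected in 5.21% of Cre-positive excitatory nuclei of the NR GR-KO male, 1.99% of the NR GR-KO female, 2.94% of the DR GR-KO male and 1.60% of the DR GR-KO female. In excitatory nuclei with 0 Cre UMIs, which were not matched for depth, the shares were 2.13%, 0.861%, 0.531% and 0.597% in the same order, lower in 4 of 4 libraries. In Cre-positive astrocytes of the same libraries the shares were 52.9%, 32.4%, 35.8% and 31.0%. The means were 2.94 ± 1.62% and 38.0 ± 10.1% (SD, n = 4), lower in neurons in 4 of 4 libraries, although the astrocyte nuclei were shallower. The nuclei were chosen by Cre UMIs, and Cre and EGFP were parts of 1 vector construct, so these differences are a description. Per 100 Cre UMIs, excitatory nuclei held 32.0 ± 5.54 EGFP UMIs and astrocytes 215 ± 10.2 (n = 4), again with no overlap between the classes.

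The delCre feature marked Cre-positive neurons more often than their matched partners. It was detected in 10.6 ± 5.84% of Cre-positive and 3.22 ± 3.52% of matched Cre-negative nuclei (SD, n = 4), higher in 4 of 4 libraries. The nuclei were chosen by Cre UMIs, and GR-KO mice were given the Cre vector only, so this difference is a description. Over all excitatory nuclei, delCre was detected in 2.95% in GR-KO (915 of 31042) and in 0.347% in GR-Con (133 of 38330). Some nuclei of the Cre-negative arm thus held a UMI of a vector feature. How reads of the vectors were divided between the Cre and delCre features was not tested.

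**Figure D2:**
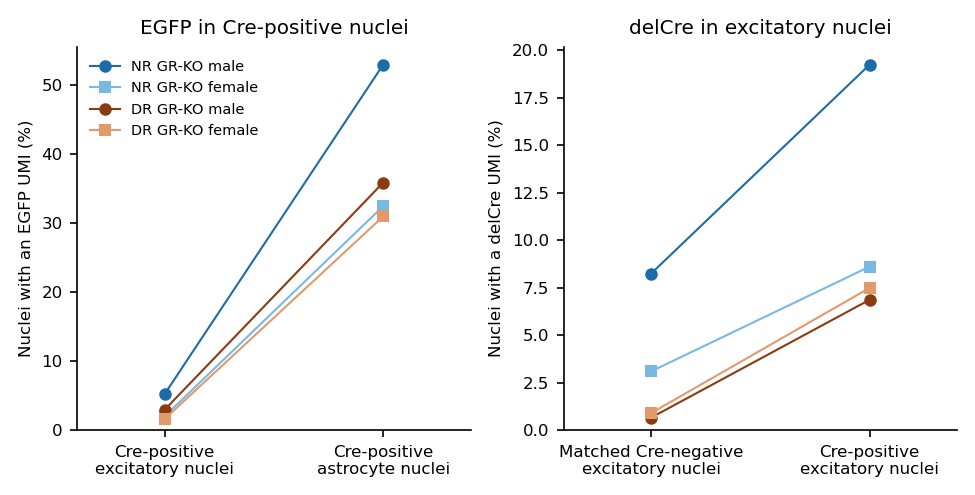
Left, percent of Cre-positive nuclei with an EGFP UMI in excitatory neurons and astrocytes; right, percent of excitatory nuclei with a delCre UMI in matched Cre-negative and in Cre-positive nuclei. Each line is 1 GR-KO library, and all 4 lines rise in each panel.

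Cre-positive and matched Cre-negative nuclei were close in depth, which the matching set, and in the number of detected genes. Each Cre-positive nucleus was matched to the 3 Cre-negative nuclei nearest in UMI count, 3564 in all. In the NR GR-KO male the median was 27113.5 UMIs in Cre-positive and 27104 in Cre-negative nuclei. The number of detected genes differed by -6.75 ± 32.8 (mean and SD of 4 paired differences of medians, exact permutation p = 0.875). Markers of excitatory neurons, among them Slc17a7, a vesicular glutamate transporter, made up 0.147% of UMIs in Cre-positive and 0.146% in Cre-negative nuclei.

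Astrocyte markers (14 genes, among them the glutamate transporters Slc1a2 and Slc1a3) made up 0.0775 ± 0.00478% of UMIs in Cre-positive and 0.0784 ± 0.00779% in Cre-negative nuclei, higher in 2 of 4 libraries (exact permutation p = 0.875). Gfap, the intermediate filament whose promoter drove the vector, had 20 UMIs in 1188 Cre-positive and 62 in 3564 Cre-negative nuclei, and was too low to be tested. The markers of oligodendrocytes (difference 0.000695% of UMIs), their precursors (0.000516%), microglia (0.000184%), endothelial cells (-1.4e-05%) and inhibitory neurons (0.00118%) gave exact permutation p-values between 0.375 and 1. Inhibitory neuron markers made up 0.00356 ± 0.00264% of UMIs in Cre-positive and 0.00238 ± 0.00045% in Cre-negative nuclei (SD, n = 4). The differences of the precursor and inhibitory markers rested on the DR GR-KO male, without which they were -0.000314% and -0.000244%. No measure could pass 0.05 with 4 pairs, so these p-values do not show that the arms were alike.

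Across all excitatory types, very few genes were called between Cre-positive and Cre-negative neurons. The Cre-negative arm is defined by undetected Cre, and detection rose with depth, so it can hold nuclei that made Cre. A delCre UMI was held by 185 of 2244 matched Cre-negative nuclei of the NR GR-KO male and 14 of 453 of the NR GR-KO female. In the DR GR-KO male it was 2 of 306 and in the DR GR-KO female 5 of 561. How far such nuclei reduced the differences was not tested. Counts were summed over nuclei per library and status and compared with edgeR's quasi-likelihood test with the library as a block. Of 13911 genes tested, 3 were called at an adjusted p under 0.05 (0.0216%): Cdh13 was higher, and Tmtc2 and Ndst4 were lower. An unadjusted p under 0.05 was reached by 674 genes (4.85%). The median log2 fold change over all genes was 0.00426. For 11735 genes (84.4%) the 95% interval of the difference lay inside 1.5-fold in either direction, and for 13709 (98.5%) inside 2-fold.

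Cdh13, at chr8:118283733-119324921 (GRCm38), encodes T-cadherin, an adhesion molecule bound to the membrane by a lipid anchor. Its level in Cre-positive and Cre-negative nuclei was 258 and 247 CPM in the NR GR-KO male, 128.8 and 100.5 in the NR GR-KO female, 504 and 399 in the DR GR-KO male and 249.5 and 190.2 in the DR GR-KO female. It was higher in Cre-positive nuclei in 4 of 4 libraries, least so in the NR GR-KO male. The log2 fold change was 0.27 (SE 0.046, edgeR adjusted p = 0.0342).

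Tmtc2, at chr10:105187663-105574451, encodes an endoplasmic reticulum protein of the O-mannosylation of cadherins. It was at 112 and 134 CPM in Cre-positive and Cre-negative nuclei of the NR GR-KO male, 95.5 and 119.8 in the NR GR-KO female, 90.03 and 105 in the DR GR-KO male and 114 and 164 in the DR GR-KO female. All 4 libraries were lower in Cre-positive nuclei, with a log2 fold change of -0.33 (SE 0.047, edgeR adjusted p = 0.00409). The value ranged from -0.73 in types other than L2/3 and L4 to -0.02 without matching, where neither Tmtc2 nor Cdh13 (0.17) was called, and was -0.13 in L4.

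Ndst4, at chr3:125404076-125728899, encodes a heparan sulfate N-deacetylase and N-sulfotransferase. It was scarce, with 38 UMIs in the Cre-positive and 390 in the Cre-negative sum of the NR GR-KO male, and 1 against 25, 1 against 14 and 1 against 14 in the NR GR-KO female, DR GR-KO male and DR GR-KO female. The log2 fold change was -1.87 (SE 0.24, edgeR adjusted p = 0.00135), lower in 4 of 4 libraries. Of the Ndst4 UMIs, 73.2% in Cre-positive and 32.7% in Cre-negative nuclei came from 10 nuclei.

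**Figure D3:**
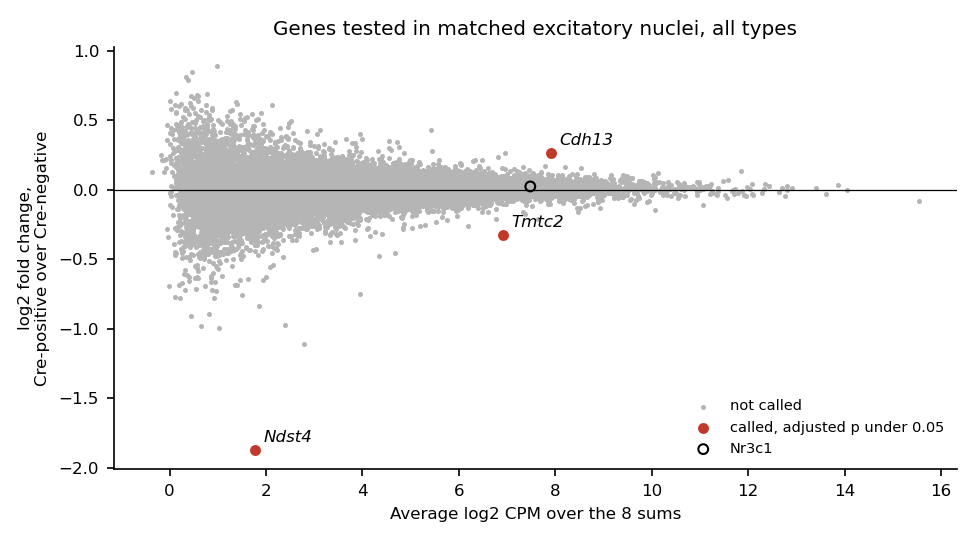
Log2 fold change of Cre-positive over matched Cre-negative nuclei (y axis) against average log2 CPM (x axis), with 1 point for each of the 13911 genes. The 3 called genes are in red, and Nr3c1 (open circle) lies near 0.

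Without the NR GR-KO male 6 genes were called, Cdh13 and Tmtc2 among them, and Ndst4 was too low to be tested; without the NR GR-KO female 6, without the DR GR-KO male 9 and without the DR GR-KO female 5 were called, Tmtc2 in each and Cdh13 in none of these. No gene was called with 1 Cre-negative nucleus per Cre-positive nucleus, with L2/3 left out, or for the nuclei with at least 2 Cre UMIs. Without nuclei high in astrocyte markers, the 2 genes called were Tmtc2 and Trps1. For Cre-positive nuclei with 0 EGFP UMIs, the 3 called were Ndst4, Tmtc2 and Unc13c. The Cdh13 call was lost in both of these fits.

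The transcript of the floxed gene differed little between the arms. Nr3c1 was at 170.0 CPM in Cre-positive and 176 in Cre-negative nuclei of the NR GR-KO male, 191 and 175 in the NR GR-KO female, 177.5 and 177 in the DR GR-KO male and 186 and 185 in the DR GR-KO female. The log2 fold change was 0.02 (95% interval -0.06 to 0.11, edgeR adjusted p = 1.00). Nr3c1 was detected in 94.5% of Cre-positive and 93.8% of Cre-negative nuclei. Nr3c2 had a log2 fold change of -0.03 (-0.13 to 0.06).

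None of the GR targets was called, beside 0.0216% of all genes tested. At that share a list of this size is likely to hold no call. Of 16 listed genes 12 were tested, 3 with a positive and 9 with a negative fold change, and their median log2 fold change was -0.09 beside 0.00426 for all genes. For 10 of the 12 the interval lay inside 1.5-fold. In L2/3, 3 of 8 tested were positive and 5 negative (median -0.02). In L4, 3 of 6 were positive and 3 negative (median -0.07), and in GR-Con, between neurons with and without delCre, 2 were positive and 4 negative (median -0.07). The median of the GR-KO minus GR-Con difference over the 6 members tested was 0.04. Fkbp5, a co-chaperone that limits the receptor's own activity, was at 26.1 and 31.9 CPM in Cre-positive and Cre-negative nuclei of the NR GR-KO male, 15.15 and 15.04 in the NR GR-KO female, 57.7 and 61.15 in the DR GR-KO male and 48.8 and 50.9 in the DR GR-KO female. The log2 fold change of -0.16 (SE 0.067) did not pass (unadjusted p = 0.0293, edgeR adjusted p = 1.00). The next members by p were Hif3a, a hypoxia-inducible factor subunit, at -0.39 (-0.87 to 0.09), Dusp1, a MAP kinase phosphatase, at 0.21 (-0.05 to 0.46), and Klf9, a zinc-finger transcription factor, at -0.09 (-0.21 to 0.03).

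**Figure D4:**
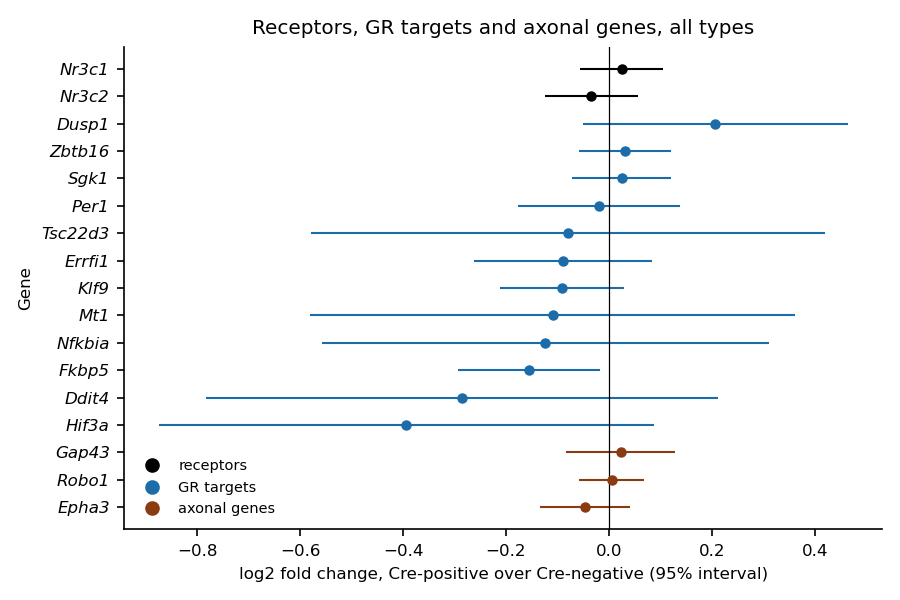
Log2 fold change of Cre-positive over Cre-negative excitatory nuclei with its 95% interval (x axis) for both corticosteroid receptors, the 12 GR targets tested and 3 axonal genes (y axis). The interval of Nr3c1 runs from -0.06 to 0.11, and all but that of Fkbp5 include 0.

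The receptor and chaperone list (9 of 10 tested) had no called member, beside 0.0216% of all genes tested. In this list Ptges3, the co-chaperone p23, was at -0.14 (edgeR unadjusted p = 0.0391). The 3 axonal genes that the study had examined, Epha3, Gap43 and Robo1, were at -0.05, 0.02 and 0.01, each with an interval inside 1.5-fold. These genes encode an ephrin receptor, a growth cone protein and a Slit receptor. In GR-Con, between neurons with and without delCre, they were at -0.58, -0.17 and -0.05. The GR-KO minus GR-Con differences were 0.56, 0.19 and 0.06. For Epha3 the interval of that difference ran from 0.22 to 0.90. Epha3 did not pass in GR-Con (edgeR unadjusted p = 0.00313, adjusted p = 0.631) or for the difference (unadjusted p = 0.00223, adjusted p = 0.449).

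No gene of the stress, damage and virus response lists was called, where the share over all genes tested was 0.0216%. Of 16 interferon and nucleic acid sensing genes only 4 were detected well enough to be tested, with log2 fold changes between -0.04 and 0.10. Of 14 p53 targets 10 were tested, 8 positive and 2 negative with a median of 0.03. Sesn2, a stress-induced regulator of mTOR signalling, was at 0.70 with a wide interval (0.08 to 1.32, edgeR unadjusted p = 0.0297). It was scarce, with 35 UMIs in the Cre-positive and 59 in the Cre-negative sum of the NR GR-KO male. The counts were 7 against 10 in the NR GR-KO female, 1 against 4 in the DR GR-KO male and 5 against 14 in the DR GR-KO female. Its CPM was higher in Cre-positive nuclei in 3 of 4 libraries and lower in the DR GR-KO male. Of 5 AAV entry genes 4 were tested and none was called. Among 9 regulators of the Gfap promoter 7 were tested, and Nfix, a nuclear factor I family member, was at 0.14 (unadjusted p = 0.0043).

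No activity-related gene was called, again beside a share of 0.0216% over all genes tested. Of 13 immediate early genes 11 were tested, 5 positive and 6 negative, with Bdnf, a neurotrophin, at 0.25 (unadjusted p = 0.0123). All 7 synaptic activity effectors and all 10 glutamate receptor genes were tested without a call. Of 12 adhesion and guidance genes with very long introns none was called, and Cntnap2, a neurexin family member, was at -0.11 (unadjusted p = 0.00491).

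None of the markers tested for the layer types was called by edgeR (3 of 3 listed were tested for each of L2/3, L5IT, L5PT and L6CT, 2 of 3 for L4 and L5NP, 1 of 3 for L6IT and 0 of 3 for L6b), against 0.0216% of all genes tested. The list of depth types within L2/3, with 3 of 3 genes tested, held Cdh13, called as higher, and Chrm2, a muscarinic receptor, and Trpc6, a cation channel, both at -0.10. The L2/3 markers Cux2, a homeobox factor, at 0.16 (edgeR adjusted p = 0.223) and Otof, a vesicle fusion protein, at 0.30 (adjusted p = 0.317) did not pass. Nor did Deptor (L5IT) at 0.27, Parm1 (L5PT) at -0.28, Tshz2 (L5NP) at 0.24 or Zfp804b (L6IT) at -0.21. These were the 6 layer-type markers with an unadjusted p under 0.05, a level that 4.85% of all genes tested reached. With so few calls over all genes, the absence of calls does not show that the arms were alike in layer markers. No marker of astrocytes (10 of 14 tested, median 0.02), oligodendrocytes (8 of 8), their precursors (2 of 4), microglia (4 of 6), endothelial cells (1 of 5) or inhibitory neurons (5 of 8) was called. The lowest of these unadjusted p-values belonged to Cnp, a myelin enzyme, at -0.54 (unadjusted p = 0.00497).

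The 7 genes next to the called ones by p did not pass. The values were 0.35 for Qrfpr, a neuropeptide receptor, 0.28 for Adamts2, a procollagen protease, -0.21 for Zfp804b, -0.26 for Cdh7, -0.45 for Unc13c, a vesicle priming factor, -0.75 for Grin3a, a glutamate receptor subunit, and -0.97 for Cntnap3, a contactin-associated protein. Qrfpr and Adamts2 were higher and Zfp804b, Cdh7 and Cntnap3 lower in Cre-positive nuclei in 4 of 4 libraries.

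Within L2/3 neurons, 5 of 12041 genes (0.0415%) were called and all 5 were lower in the 422 Cre-positive nuclei. The 5 were Il1rapl2, Chrm2, Cadps2, Cntnap3 and Ndst4. Il1rapl2 (chrX:137570608-138846946) encodes a synaptic adhesion protein of the interleukin-1 receptor family. It was at 53.9 and 149.5 CPM in Cre-positive and Cre-negative nuclei of the NR GR-KO male, 19.9 and 27.3 in the NR GR-KO female, 92.75 and 220.0 in the DR GR-KO male and 98.8 and 120.4 in the DR GR-KO female. The log2 fold change was -1.0 (SE 0.14, edgeR adjusted p = 0.0042).

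Chrm2 (chr6:36388084-36528414), the M2 acetylcholine receptor, was at 24.7 and 38.35 CPM in L2/3 of the NR GR-KO male, 21.3 and 45.3 in the NR GR-KO female, 28.5 and 43.9 in the DR GR-KO male and 25.8 and 34.5 in the DR GR-KO female. The Cre-positive sums (25.1 ± 2.98 CPM) did not overlap the Cre-negative ones (40.5 ± 5.03, n = 4), with a log2 fold change of -0.68 (SE 0.11, edgeR adjusted p = 0.0154). Cadps2 (chr6:23262773-23839421), which primes dense-core vesicles, fell from 209 ± 52.0 to 157 ± 41.9 CPM (log2 fold change -0.38, SE 0.068, edgeR adjusted p = 0.033). Cntnap3 and Ndst4 were scarce in L2/3, at 2.49 against 11.2 and 1.28 against 6.14 mean CPM of the matched nuclei, and over all Cre-negative L2/3 nuclei at 5.80 and 5.47. Both had libraries with 0 UMIs among the Cre-positive nuclei. Their log2 fold changes were -1.77 and -1.90 (edgeR adjusted p = 0.0116 and 0.00996). The Cntnap3 value ran from -2.01 without the NR GR-KO male to -0.93 without matching, and the call was lost in both of these fits and with DESeq2.

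Markers of the layers did not pass in L2/3 other than Chrm2, which was also listed as a marker of depth types. Of the markers of the 8 types, the smallest p-values in L2/3 were those of Rorb (L4) at -0.46 (edgeR adjusted p = 0.404), Parm1 (L5PT) at -0.45 (adjusted p = 0.529), Otof (L2/3) at 0.29 (adjusted p = 0.633) and Cux2 (L2/3) at 0.18 (adjusted p = 0.755). Tshz2 (L5NP) came next, at 0.40 (edgeR adjusted p = 0.949). All of these were under 0.05 before adjustment, as were 575 of the 12041 genes tested. Of the markers tested, they made up 2 of 3 for L2/3, 1 of 1 for L4, 1 of 2 for L5PT and 1 of 1 for L5NP. None of the 3 L5IT, 1 L6IT and 2 L6CT markers tested reached that level. The absence of calls does not show that the arms were alike in layer markers. The part of these differences in the L2/3 calls was not tested.

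Cdh13 in L2/3 was higher in Cre-positive nuclei in 4 of 4 libraries (log2 fold change 0.32, SE 0.064) without passing (edgeR adjusted p = 0.0954), and Tmtc2 was at -0.34 (adjusted p = 0.267). Nr3c1 was at 0.06 (95% interval -0.06 to 0.19). Without the NR GR-KO male 10 genes were called in L2/3, 5 higher and 5 lower, 2 of them Il1rapl2 and Cadps2; 3, 5 and 12 were called without the NR GR-KO female, DR GR-KO male and DR GR-KO female. Il1rapl2 was called each time and also without matching, its log2 fold change running from -1.29 without the DR GR-KO female to -0.46 without matching. The Chrm2 call was lost without the NR GR-KO male and without the NR GR-KO female, and the Cadps2 call without the NR GR-KO female and without the DR GR-KO male. DESeq2 called none of the L2/3 genes (141 at an unadjusted p under 0.05).

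Within L4 neurons, 3 of 11232 genes (0.0267%) were called, again all lower in the 486 Cre-positive nuclei: the classical cadherins Cdh7 and Cdh20 and Enpp2, the enzyme autotaxin that makes lysophosphatidic acid. Cdh7 (chr1:109982431-110140157) was at 36.8 and 56.0 CPM in Cre-positive and Cre-negative nuclei of the NR GR-KO male, 59.05 and 95.5 in the NR GR-KO female, 13.15 and 21.1 in the DR GR-KO male and 21.1 and 36.0 in the DR GR-KO female. Each mouse showed a fall, and the mice differed from each other more than the arms did. The log2 fold change was -0.65 (SE 0.085, edgeR adjusted p = 0.0005).

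Enpp2 (chr15:54838901-54952892) was at 32.6 ± 6.26 and 47.6 ± 3.14 CPM (n = 4), with no overlap between the arms (log2 fold change -0.63, SE 0.100, edgeR adjusted p = 0.00742). Cdh20 (chr1:104768529-104995481) was lower in 3 of 4 libraries, the DR GR-KO male having 110.4 CPM in Cre-positive and 105.6 in Cre-negative nuclei (log2 fold change -0.43, SE 0.074, edgeR adjusted p = 0.0181). Nr3c1 in L4 was at -0.06 (95% interval -0.18 to 0.07). Without the NR GR-KO male no L4 gene was called by edgeR (397 at an unadjusted p under 0.05), and 4, 19 and 4 were called without the NR GR-KO female, DR GR-KO male and DR GR-KO female. The Cdh20 call was also lost without the NR GR-KO female. DESeq2 called none with all 4 libraries (77 at an unadjusted p under 0.05).

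**Figure D5:**
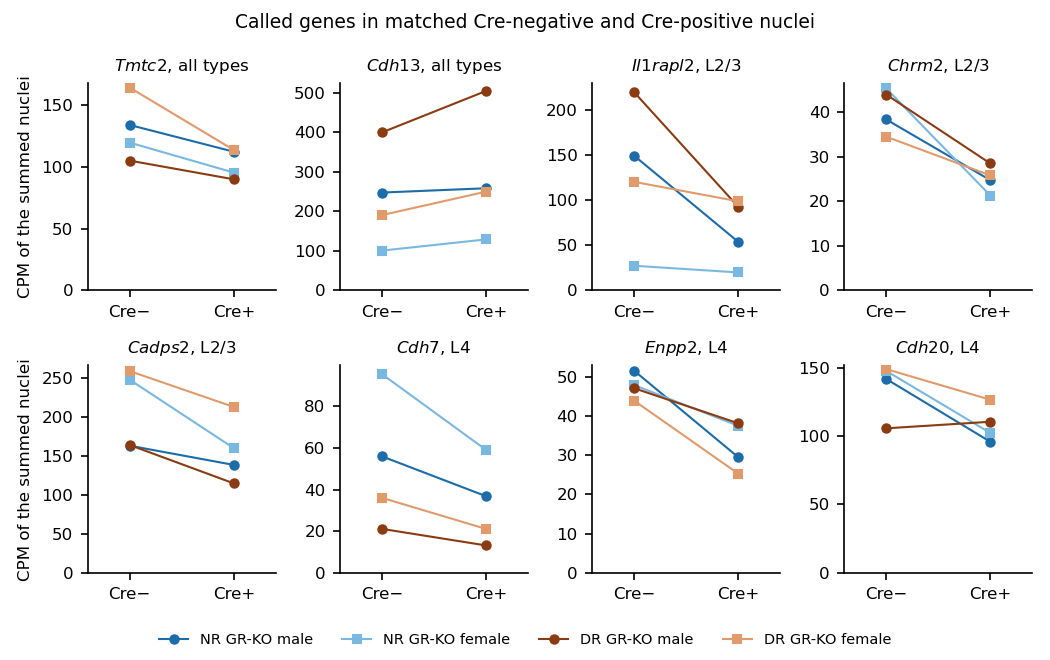
CPM (y axis, from 0) in the summed matched Cre-negative and Cre-positive nuclei (x axis) for called genes in all types, L2/3 and L4. Each line is 1 GR-KO library; in L4, the Cdh20 line of the DR GR-KO male is the 1 line that runs against the rest.

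The genes called in L2/3 and in L4 differed in their level between these types. Over all Cre-negative nuclei of a type, a larger set than the matched nuclei of the fits, Il1rapl2 was at 87.9 CPM in L2/3 and 412 in L4 (mean of 4 libraries; 129 and 593 in the matched nuclei), Chrm2 at 36.7 and 164, and Cadps2 at 205 and 518. Each of these 3 genes, called as lower in Cre-positive L2/3 nuclei, was thus more abundant in L4. The L4 genes had the opposite profile, with Cdh7 at 124 CPM in L2/3 and 50.1 in L4, Enpp2 at 289 and 45.8 and Cdh20 at 198 and 149.6. Ndst4 (5.47 and 0.314 CPM) and Cntnap3 (5.80 and 1.03) were exceptions, being scarce in L4. In L4, Il1rapl2 was at 0.02 and Chrm2 at 0.09 on the log2 scale between Cre-positive and Cre-negative nuclei, while Cadps2 was at -0.07. In L2/3, Enpp2 was at 0.05, while Cdh7 (-0.17, lower in 4 of 4 libraries) and Cdh20 (-0.21, lower in 3 of 4) had the sign they had in L4 without passing (edgeR adjusted p = 0.998 and 0.755). Whether a gene's difference varied between the 2 types was not tested.

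Without matching for type and depth, more genes were called. Against all 29545 Cre-negative nuclei, 1202 of 18675 genes (6.44%) were called, 658 higher and 544 lower. Of the 24 layer markers listed, all of them tested, 5 were called higher and 7 lower, among them 3 of 3 L6CT markers as lower and 4 of 6 L2/3 and L4 markers as higher. The L6CT markers Foxp2, Tle4 and Syt6 were at -2.36, -1.70 and -2.69 there, and the upper-layer genes Cux2 and Rorb at 0.52 and 0.45. L6CT was the type with the lowest Cre share when libraries were pooled, though not in every library. In that comparison the types and the depths differed together. With all Cre-negative nuclei of 1 type, 18 genes were called in L2/3 (13 higher and 5 lower) and 108 in L4 (70 higher and 38 lower), so that the calls were no longer all lower.

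GR-Con neurons with delCre UMIs were compared with matched neurons in the same way, with no active Cre present. Their share of 0.347% at a median depth of 19698.5 UMIs was lower than the Cre share in GR-KO. In oligodendrocytes and their precursors of GR-Con, the background for free RNA, delCre was detected in 2 of 4265 nuclei (0.0469%) at a median of 7390 UMIs, and with thinning to 5000 UMIs the shares were 0.0842% and 0.0169%. How many of the delCre-positive neurons were such background was not tested. There were 133 such nuclei in the 4 libraries (41 in the NR male, 42 in the NR female, 13 in the DR male and 37 in the DR female). No gene of 8268 tested (0%) was called by edgeR, with 399 at an unadjusted p under 0.05; DESeq2 called 1, Slc1a3. The smallest p-values belonged to Slc1a3 (log2 fold change 1.85, SE 0.32, edgeR adjusted p = 0.135), Gpc6, a glypican, at 0.32, Ptprz1, a receptor phosphatase, at 1.19 and Qk, an RNA-binding protein of glia, at 0.54, each higher in 4 of 4 libraries. Astrocyte markers made up 0.0801% of UMIs in delCre-positive and 0.0702% in matched nuclei, higher in 3 of 4 (exact permutation p = 0.375), and their part in these values was not tested.

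Cdh13 was at 0.45 (SE 0.11, edgeR adjusted p = 0.433) in GR-Con, higher in 4 of 4 libraries, and Tmtc2 at -0.24 (adjusted p = 1.00), lower in 3 of 4. Nr3c1 was at -0.02 (95% interval -0.28 to 0.24). The difference between the genotypes was tested as an interaction. Here edgeR called 0 of 11080 genes (0%, with 643 at an unadjusted p under 0.05) and DESeq2 4. The 95% interval of this difference lay inside 1.5-fold for 4906 genes (44.3%), beside 84.4% in the all-type fit of GR-KO. The 0 calls therefore do not show that the genotypes were alike. For Cdh13 the GR-KO minus GR-Con difference was -0.12 (95% interval -0.36 to 0.12), for Tmtc2 -0.11 (-0.37 to 0.15) and for Nr3c1 0.07 (-0.17 to 0.31). Cdh7 had the smallest edgeR p of the interaction, at -0.68 (edgeR adjusted p = 0.0757), being 0.40 in GR-Con. The 4 genes that DESeq2 called were Cdh7, Fgd6, Nxpe4 and Qk.

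The Cre difference was compared between NR and DR as an interaction, to ask whether it varied with visual experience. It differed for 7 of 13911 genes (0.0503%), of which 6 had a lower and 1 a higher Cre difference in NR than in DR. Tshz2, a zinc-finger factor most abundant in L5NP neurons, was at 94.7 and 117 CPM in Cre-positive and Cre-negative nuclei of the NR GR-KO male and 20.4 and 20.5 in the NR GR-KO female. In DR it was at 248.5 and 170.5 in the male and 234 and 135 in the female. The Cre difference was thus above 0 in the DR mice, while in NR it was below 0 in the male (log2 ratio -0.30) and near 0 in the female (-0.01). The log2 difference between rearings was -0.94 (SE 0.096, edgeR adjusted p = 0.000102). In the DR mice 102 and 187 nuclei stood behind these sums, and 30.6% of all Tshz2 UMIs in Cre-positive nuclei came from 10 nuclei.

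Megf11, an adhesion protein with EGF-like repeats, was at 25.5 and 25.8 CPM in the NR male, 10.9 and 12.8 in the NR female, 40.92 and 23.02 in the DR male and 48.5 and 21.1 in the DR female (log2 difference -1.12, SE 0.16, edgeR adjusted p = 0.00536). Etv6, an ETS family repressor (-0.47, adjusted p = 0.0371), and Cdc14a, a phosphatase (-1.28, adjusted p = 0.0377), had the same signs. The Cdc14a call was lost without the NR GR-KO male and without the DR GR-KO female, its value running from -0.87 to -1.60 over the fits, and 36.8% of its UMIs in Cre-positive nuclei came from 10 nuclei. Col8a1, a short-chain collagen, was the 1 gene with a higher difference in NR, at 25.72 and 22.98 CPM in the NR male, 63.3 and 38.3 in the NR female, 22.4 and 43.9 in the DR male and 29.25 and 41.2 in the DR female (log2 difference 1.06, SE 0.19, edgeR adjusted p = 0.0478). Leaving out any 1 library raised the count, to 21 without the NR male, 16 without the NR female, 61 without the DR male and 54 without the DR female, and these calls held 5, 6, 7 and 6 of the 7 genes. The Elmo1 call was lost without the NR female and the Prlr call without the NR male. DESeq2 called 1 gene, Tshz2. An arm then rests on 1 mouse, whose spread is taken from the other groups. Nr3c1 did not pass, with a log2 difference between rearings of 0.02 (95% interval -0.15 to 0.18).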

How the data were processed

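The authors made 1 table of UMI counts per feature and nucleus (10x 3′ libraries, mm10), with Cell Ranger 8.0.1 and Seurat 5.3.0 per the labels, and deposited it as raw counts with cell types and libraries. They had removed doublets with DoubletFinder and nuclei outside their limits on gene counts. The deposited type calls were used. Library names give group and sex but no replicate number, so libraries were assigned to groups and not to single replicates. Counts summed to the deposited nCount_RNA in 102330 of 102330 nuclei.

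Each Cre-positive nucleus was matched without replacement to the 3 nearest Cre-negative nuclei of its library and type in log UMI count. Raw counts were summed per library and status and tested with edgeR 4.0.16 in R 4.3.3 (filterByExpr, TMM, glmQLFTest, two-sided, library as a block, Benjamini-Hochberg over all genes tested). Cre, EGFP and delCre were left out of the genes tested by edgeR and DESeq2. Per-type fits needed at least 10 Cre-positive nuclei in each library, which L2/3 and L4 had. The block pairs sums of the same mouse; deviations from the status means correlated at 0.666 to 0.862 within a mouse (8787 genes). CPM are counts per 1e6 UMIs of a sum. Intervals of shares are exact binomial, the limit for a count of 0 is 3 counts of the total, and both cover counting error only. The edgeR p-values rest on how the difference within a mouse varied between mice, since the block removes the level of each mouse. That spread was estimated with information shared across genes (3 residual and 19.3 prior degrees of freedom in all types, 2 and 17.0 between rearings). Scripts were tested on simulated data. Alternatives were the likelihood ratio test, DESeq2 1.42.0, its size factors, no filter, other matching and thresholds, and leaving out libraries.

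Members and gene lists were chosen with earlier results of these data known, so that lists are described by counts and medians only. Genes were named by rule: Nr3c1, Fkbp5, Gfap, up to 4 list members by p, called genes averaging 3 or more in log2 CPM with the same direction in 4 of 4 libraries (up to 12 per direction, 4 in other comparisons), and the 10 smallest p. Called genes outside the rule (Ndst4 in L2/3, Cdh20 in L4 and the 7 genes between rearings), the layer genes of the unmatched comparison and the values of called genes in the other types and comparisons were chosen after their values were seen. Gene positions are from GENCODE vM21 (GRCm38).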

Additional observations from a re-analysis of the deposited data

Results flagged for a closer look

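Gaps between the 4 GR-KO libraries were tested with Dixon's criterion in 49 sets of values, 6 of which passed; chance passes about 1 in 20. Shares of Cre-positive nuclei, which chose the nuclei, were not tested. The NR GR-KO male stood apart in the share of Cre-positive nuclei with delCre (19.3%, others 6.86 to 8.61%). Its log2 ratio for Cdh13 was the smallest, at 0.0623 against 0.34 to 0.39 in the others. The DR GR-KO male stood apart in the Cre-positive minus Cre-negative share of UMIs from precursor markers (0.00301%) and inhibitory neuron markers (0.00545%), and in the log2 ratios of Nr3c2 (-0.193) and Deptor (-0.235).

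The Cre difference varied between NR and DR by the interaction test for Tshz2 (-0.943), Megf11 (-1.12), Etv6 (-0.47), Elmo1 (-0.456), Prlr (-2.06), Cdc14a (-1.28) and Col8a1 (1.06), given as log2 differences of NR minus DR. Elmo1 encodes a regulator of Rac signalling and Prlr the prolactin receptor. The Elmo1 call was lost without the NR GR-KO female, the Prlr call without the NR GR-KO male and the Cdc14a call without the NR GR-KO male and without the DR GR-KO female. Of the Prlr UMIs in Cre-positive nuclei, 53.4% came from 10 nuclei.

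Inhibitory neurons, which no comparison here used, held Cre too: 186 of 4638 GR-KO nuclei (4.01%) were Cre-positive, against 0 of 5765 in GR-Con (which allows a share of up to 0.0520%).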

How the results depend on the processing

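Counts of called genes moved with the test and the matching. The likelihood ratio test called 20 genes in all types, 15 in L2/3, 9 in L4, 15 in GR-Con, 32 between genotypes and 19 between rearings. DESeq2 called 0 in L2/3, 0 in L4, 1 in GR-Con, 4 between genotypes and 1 between rearings, and 3 in all types, 2 of them shared. In all types, 42 were called with no filter on low counts, 1202 without matching, and 0 with 1 Cre-negative nucleus per Cre-positive nucleus, with at least 2 Cre UMIs or with L2/3 left out; without depth matching within a type 18 were called in L2/3 and 108 in L4. For all types, 2 alternatives, Cre-negative nuclei without delCre (3 called, the same genes) and types other than L2/3 and L4 (4), and the unmatched fits per type were chosen after seeing the data. Without the pairing of the 2 sums of a mouse (no replicate block), 0 were called in all types and 0 in GR-Con; Nr3c1 in GR-Con was then at 0.025. Leaving out 1 library gave 5 to 9 calls in all types, 3 to 12 in L2/3, 0 to 19 in L4, 0 to 7 in GR-Con, 0 to 9 between genotypes and 16 to 61 between rearings. The causes were not tested.

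With at least 2 Cre UMIs, these differences moved from the main value by more than 1 SD of its 4 paired differences: detected genes -112, mitochondrial UMIs 0.00197%, delCre-positive nuclei 18.9%, microglia markers 0.00139%, endothelial markers -0.000135% and excitatory markers -0.00577%. The mitochondrial, microglia and excitatory values were smaller than their own SD in that setting (0.00334, 0.00360 and 0.0101%), and the microglia value was -0.000396% without the DR GR-KO male.

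Signs changed for differences that were not called, given as log2 values. In all types without matching, Nr3c1 was at -0.072, Nr3c2 0.084, Epha3 0.15, Gap43 -0.16, Robo1 -0.078, Tshz2 -0.13 and Cdh7 0.0095. With at least 2 Cre UMIs, Nr3c1 was at -0.17, Nr3c2 0.11 and Chrm2 0.28. With L2/3 left out, Epha3 was at 0.048, Tshz2 -0.066, Chrm2 0.0084 and Cntnap3 0.044; in types other than L2/3 and L4, Epha3 was at 0.091, Cntnap2 0.045, Cntnap3 0.0074 and Cdh7 0.12. Epha3 was at 0.012 without nuclei high in astrocyte markers, and Robo1 at -0.016 with no filter and -0.0044 without EGFP-positive nuclei. In GR-Con, Nr3c1 was at 0.014 with DESeq2. In L2/3, Enpp2 was at -0.012 without matching; in L4, Chrm2 was at -0.058 without matching and Il1rapl2 at -0.0054 with the likelihood ratio test and -0.0084 with DESeq2. Leaving out 1 library gave, in all types, -0.013 to 0.061 for Nr3c1, -0.095 to 0.013 for Epha3, -0.017 to 0.068 for Gap43, -0.012 to 0.025 for Robo1 and -0.0020 to 0.57 for Tshz2. It gave -0.15 to 0.10 for Nr3c1 in GR-Con, -0.067 to 0.12 between rearings, -0.051 to 0.17 between genotypes and -0.096 to 0.019 in L4. Tmtc2 between genotypes ran from -0.24 to 0.068, Enpp2 in L2/3 from -0.013 to 0.090 and Il1rapl2 in L4 from -0.059 to 0.13. Of the other log2 values of named genes under an alternative, 633 kept direction and side of the threshold, 46 were no longer past it and 67 were newly past it.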

Other observations

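Among GR-KO inhibitory neurons, Cre was detected in 5.23% of Sst nuclei (65 of 1243), 4.66% of Pvalb nuclei (80 of 1716), 3.97% of Lamp5 nuclei (23 of 579) and 1.60% of Vip nuclei (17 of 1062). Sst and Pvalb mark interneurons that inhibit dendrites and cell bodies of excitatory neurons, respectively. As in excitatory neurons the NR GR-KO male had the highest share, at 7.41% of its inhibitory nuclei against 2.86% in the NR GR-KO female, 1.59% in the DR GR-KO male and 2.72% in the DR GR-KO female.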
